A study of Mus musculus with 4 samples.

Results

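CTCF binding sites in introns of mouse liver were taken from a list of sites at lights on (ZT0) and a list at lights off (ZT12). A site counted as intronic when its midpoint lay more than 1 kb from every annotated transcript start, in no exon and inside an annotated gene body. Autosomes alone were used. By this rule 3106 of the 10113 listed ZT0 sites and 2052 of the 6799 listed ZT12 sites were intronic. The sites came from ChIP-seq with 10 µg of an anti-CTCF antibody on livers of male wild-type C57BL/6 mice, with no treatment named in the labels. Per the study, mice 8 weeks old were kept for 2 weeks under 12 h of light and 12 h of dark and fed ad libitum. Tissue was fixed in 1% formaldehyde for 5 min. Both time points have 2 biological replicates, and each time point has a single list of positions, which carries no replicate, score, strand or read count. The spread between replicates and the depth behind a site are therefore unknown, and all 95% intervals given cover counting error only. ChIP-seq was done on livers that also served for the study's Hi-C, where each replicate was a pool of a pair of livers. Binding positions cannot check the tissue label against marker genes.

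CTCF is a zinc finger protein that binds a long, directional DNA motif. It halts the loop-extruding cohesin complex, and chromatin loops form mostly between motifs that point towards each other. Within introns CTCF has been linked to enhancer contacts, to boundaries inside long genes and to splicing of nearby exons.

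Intronic sites made up 30.9% of the 10038 autosomal ZT0 sites (95% Wilson interval 30.05 to 31.85%) and 30.4% of the 6756 autosomal ZT12 sites (29.3 to 31.5%). The intronic sequence that could hold such a site covered 869 Mb, or 36.3% of the autosomal sequence. The density was 3.57 sites per Mb at ZT0 (exact Poisson interval 3.45 to 3.70) and 2.36 per Mb at ZT12 (2.26 to 2.46). Between genes the density was 3.18 and 2.19 per Mb, while around transcript starts it was 20.4 and 13.8 per Mb. The ZT0 intronic site closest to the 1 kb limit was chr4:129191671-129191981 in Marcksl1, with its midpoint 1001 bp from a transcript start. The nearest one left out at ZT0, chr13:16097428-16097685 in Gm17394, had its midpoint at 997 bp.

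Of the intronic ZT0 sites, 1622 overlapped a ZT12 site by at least 1 bp and were counted as shared (52.2%, 95% Wilson interval 50.5 to 54.0%), against 56.4% of all autosomal ZT0 sites. The remaining 1484 were ZT0-only. Of the intronic ZT12 sites, 1623 were shared (79.1%, 77.3 to 80.8%), against 83.9% of all autosomal ZT12 sites, and 429 were ZT12-only. The lists differ in length, so each share holds for its own list. Both lists are also shorter than the set of CTCF sites the study describes, so a site counted here at 1 time point is absent from the other list, and whether CTCF was absent there was not tested. The shared share of intronic sites was below that of all other sites of the list, by a difference of -6.03 percentage points at ZT0 (95% Newcombe interval -8.13 to -3.93) and -6.85 points at ZT12 (-8.91 to -4.87). Against sites between genes the difference was -4.57 points at ZT0 (-6.86 to -2.28) and -3.53 points at ZT12 (-5.77 to -1.33). Against sites around transcript starts it reached -10.2 points (-12.9 to -7.40) and -13.5 points (-15.7 to -11.2). Against sites in other exons the ZT0 interval included no difference (-2.29 points, -6.75 to 2.23), and the ZT12 interval did not (-9.21 points, -12.7 to -5.01). By chromosome, the shared share of intronic ZT0 sites ranged from 41.5% of 118 sites on chromosome 12 (33.0 to 50.5%) to 57.1% of 91 sites on chromosome 18 (46.9 to 66.8%), intervals that overlap. The density at ZT0 ranged from 2.36 per Mb on chromosome 13 to 5.14 per Mb on chromosome 11.

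Intronic sites were narrower than those around transcript starts, and wider sites were shared more often. Their median width was 301 bp at ZT0 (binomial interval of the median 298 to 304) and 275 bp at ZT12 (272 to 279), against 350 and 308 bp around transcript starts. Among intronic ZT0 sites of 125 to 256 bp, 33.7% were shared, and the share rose through 45.4% and 57.1% to 73.1% at 359 to 1010 bp. At ZT12 it was 67.9% at 180 to 236 bp and 90.1% at 331 to 917 bp. The difference from other sites was then read within width classes of the whole list. At ZT12 intronic sites were shared less often in each of the 4 classes, by -4.65 to -7.04 points, and every interval lay below 0. At ZT0 the classes disagreed. Sites of up to 260 bp were shared more often in introns (34.9% against 30.3%), those of 261 to 313 bp less often (44.9% against 51.3%), those of 314 to 380 bp about alike (62.0% against 63.1%, difference -1.12 points, -5.23 to 2.93), and those of 381 bp or more less often (76.8% against 83.9%). How much of the ZT0 difference rests on width was not tested.

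Most shared intronic sites had 1 partner, and the partner was nearly always intronic too. Of 1618 such pairs, 1590 had a partner in an intron, 22 in another exon and 6 around a transcript start. The ZT12 site was narrower in 1095 pairs, wider in 516 and equal in 7, with a median difference of -37 bp (-43 to -32). The midpoints lay a median of 35 bp apart. In 1316 pairs both sites held a motif match, and in 1312 of them (99.7%) it was the same stretch of sequence on the same strand. Of the intronic sites, 2 at ZT0 and 2 at ZT12 overlapped more than 1 site of the other list. An example from each list lay within the annotated intron 2 of Fgfr2, a receptor for fibroblast growth factors. These places also lie in Tacc2 and Lhpp. In Tacc2 the ZT12 site chr7:137905731-137906517 overlapped the ZT0 sites chr7:137905557-137905935 and chr7:137906243-137906587. In Lhpp the ZT0 site chr7:139847797-139848629 overlapped the ZT12 sites chr7:139847859-139848066 and chr7:139848291-139848620.

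The intronic sites lay in 2504 annotated genes at ZT0 and 1767 at ZT12, of which 1453 held a site at both time points, 1051 at ZT0 alone and 314 at ZT12 alone. Protein-coding genes, taken first where genes overlap, hosted 94.7% of the ZT0 sites on 94.7% of the intronic sequence. A further 2.74% of the sites lay in lincRNA genes. Of 21418 autosomal protein-coding genes, 2313 held an intronic site at ZT0 (10.8%) and 1627 at ZT12 (7.60%). The share rose with gene length, from 1.28% of genes of up to 10 kb to 8.93% at 10 to 30 kb, 18.3% at 30 to 100 kb, 34.1% at 100 to 300 kb and 39.0% of longer genes at ZT0. Most host genes held a single site, 1996 of 2504 at ZT0. Among the 508 genes with more than 1 intronic ZT0 site, all sites were shared in 133 and none in 102. The other 273 held shared and ZT0-only sites side by side. Over all intronic ZT0 sites 52.2% were shared. Whether the counts by gene depart from what that share alone would give was not tested.

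The protein-coding gene with the most intronic sites was Gm20388, a gene model of 4435 kb on chromosome 8 whose first intron is annotated over 4384 kb, with 49 sites at ZT0 and 34 at ZT12. Fgfr2 followed with 15 and 12 sites, in an annotated body of 3009 kb in which intron 2 alone covers 2957 kb. Both introns span other genes, so these are counts of gene models. Of the Gm20388 sites, 10 at ZT0 and 8 at ZT12 also lay in another annotated gene, and the rest lay in no other one. Of the Fgfr2 sites, 10 and 6 did so, at ZT0 in Nsmce4a, Tacc2, 5430419D17Rik, Lhpp, Fam53b and Ctbp2. Arhgap26 held 9 intronic sites at ZT0, 4 of them shared, and 4 at ZT12; 3 and 2 of these also lay in Fgf1. Nav2, a neuron navigator protein, held 8 at ZT0, and its 5 ZT12 sites were all shared. Camta1, a calmodulin-binding transcription activator, held 8 at ZT0, 3 of them shared, and 5 at ZT12, 2 of them ZT12-only. Kalrn also held 8 at ZT0, with 6 ZT0-only, and 4 at ZT12, with 2 ZT12-only.

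D630003M21Rik packed 5 ZT0 sites into 46.7 kb, or 10.7 per 100 kb, and 4 of them were shared; 1 also lay in 1700060C20Rik. Ksr2, a scaffold of the Ras pathway, held 5 ZT0 sites between 83.2 and 103 kb from its start, 4 of them shared, and the best-scoring motif word of each, above the threshold or not, pointed along the gene. Myo18a, an unconventional myosin, held 5 ZT0 sites in 103 kb. Its 3 shared sites lay in introns 10, 11 and 15 of 41, and the ZT0-only sites lay in introns 2 and 15. Prkce, a protein kinase C, held 5 sites at ZT0 and 3 at ZT12, with 2 of the ZT0 sites shared. Pde4d, a cAMP phosphodiesterase, was named for being among the genes with the most ZT12-only sites. None of its 3 ZT0 sites overlapped any of its 3 ZT12 sites, which that choice favours. Over all intronic sites, 52.2% at ZT0 and 79.1% at ZT12 were shared. The Pde4d sites were 207 to 264 bp wide, and narrow sites were shared less often in both lists. The ZT0 site chr13:110309793-110310026 and the ZT12 site chr13:110133900-110134131 lay in the same intron of 708 kb.

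Intronic sites were denser close to exons, in short introns and towards the 3′ end of genes. Within 1 kb of an exon lay 39.7% of the ZT0 sites (38.0 to 41.4%) and 40.4% of the ZT12 sites (38.3 to 42.6%), on 22.5% of the intronic sequence. The ZT0 density there was 6.29 per Mb, against 2.78 per Mb farther away. Introns of up to 5 kb held 6.94 sites per Mb at ZT0, those of 5 to 20 kb 4.46, those of 20 to 100 kb 2.47, and longer ones 1.54. Sites 1 to 5 kb from a transcript start had a density of 5.82 per Mb at ZT0, and those more than 100 kb away 0.972 per Mb. First introns held 23.0% of the ZT0 sites (21.6 to 24.5%) and 23.2% of the ZT12 sites (21.5 to 25.1%), on 27.1% of the intronic sequence. When each gene body was split into 3 equal parts, the ZT0 density was 2.82 per Mb in the 5′ part, 3.35 in the middle and 4.61 in the 3′ part. The ZT12 densities ran in the same order, at 1.84, 2.17 and 3.13 per Mb. These features overlap with each other, and which of them goes with the density by itself was not tested.

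The shared share varied less by position than by width. At ZT0 it was 56.2% in introns of up to 5 kb (53.3 to 59.1%) and 46.3% in introns of 20 to 100 kb (42.8 to 49.9%). In first introns 53.1% of the ZT0 sites were shared, and in introns from the third onwards 52.1%.

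The CTCF motif was searched for with a weight matrix of 19 bp, learned on the sites outside introns, whose most frequent bases read TGGCCACCAGGGGGCGCTA. A match was a score that 1% of equally long regions 5 kb away from those sites reach. The lists are labelled as peaks after a motif search, and how far that search selected the sites was not tested. A match was found in 78.9% of the intronic ZT0 sites (77.4 to 80.3%), against 74.4% of all autosomal ZT0 sites, and in 0.913% of the regions 5 kb from the intronic sites. At ZT12 it was found in 79.7% (77.9 to 81.4%), against 76.3% of all autosomal ZT12 sites. The matrix was learned on the other sites, so their scores, unlike those of intronic sites, come from sites used to build it. The difference from sites around transcript starts was 18.5 points at ZT0 (15.9 to 21.1), while that from sites between genes included 0 (1.29 points, -0.619 to 3.17). Shared sites held a match more often than ZT0-only sites (81.6% against 75.9%, difference 5.62 points, 2.75 to 8.50) and than ZT12-only sites (81.1% against 74.1%, 7.02 points, 2.63 to 11.7).

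A CpG, the dinucleotide whose methylation can weaken CTCF binding, was less common in intronic matches than in those of the other classes at ZT0. It occurred in 48.7% of the intronic ZT0 matches (46.7 to 50.6%), 55.2% of those between genes, 65.5% of those in other exons and 77.0% of those around transcript starts. Most often it began at position 15 of the match, in 39.8% of the intronic ZT0 matches. At ZT12 a CpG was present in 50.6% of the shared and 36.2% of the ZT12-only matches (difference 14.4 points, 8.35 to 20.2). At ZT0 the shared and ZT0-only matches had 50.4% and 46.6%, an interval that included 0 (3.83 points, -0.139 to 7.78). The median GC content of 200 bp around the midpoint was 52.5% for shared ZT12 sites (52.0 to 52.5%) and 48.5% for ZT12-only sites (48.0 to 49.0%), so base composition differed in the same direction. Methylation was not analysed here.

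The sequences with the highest motif scores in introns of protein-coding genes are given to show the best matches of each class. Each is 59 bases of mm9 on the strand of the match, with the 19 bp match in capitals. The shared ones come from the ZT0 sites chr8:122602024-122602313 in intron 1 of Gm20388 (minus strand), chr9:64242046-64242267 in intron 1 of Megf11 (plus strand) and chr9:121606439-121607296 in intron 1 of Sec22c (plus strand).
Gm20388: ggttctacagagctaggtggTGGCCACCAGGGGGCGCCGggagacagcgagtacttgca
Megf11: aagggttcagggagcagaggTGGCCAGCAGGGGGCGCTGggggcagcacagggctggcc
Sec22c: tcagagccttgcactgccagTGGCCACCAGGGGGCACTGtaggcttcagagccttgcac
The ZT0-only ones come from chr4:118248727-118249050 in intron 18 of Wdr65 (minus strand), chr10:83900837-83901114 in intron 1 of Nuak1, a kinase related to AMPK (minus strand), and chr16:96373197-96373542 in intron 1 of Wrb (minus strand).
Wdr65: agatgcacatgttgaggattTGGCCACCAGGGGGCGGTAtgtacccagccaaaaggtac
Nuak1: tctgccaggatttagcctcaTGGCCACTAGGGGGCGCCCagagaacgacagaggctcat
Wrb: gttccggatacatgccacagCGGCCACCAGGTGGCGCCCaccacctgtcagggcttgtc
The ZT12-only ones come from chr17:12229160-12229419 in intron 9 of Park2, which encodes the ubiquitin ligase parkin (plus strand), chr4:59353652-59353880 in intron 12 of Susd1 (minus strand) and chr13:120167301-120167530 in intron 7 of Nnt, a mitochondrial transhydrogenase (minus strand).
Park2: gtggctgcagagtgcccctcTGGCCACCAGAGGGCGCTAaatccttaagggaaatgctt
Susd1: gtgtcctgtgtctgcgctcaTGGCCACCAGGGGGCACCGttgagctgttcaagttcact
Nnt: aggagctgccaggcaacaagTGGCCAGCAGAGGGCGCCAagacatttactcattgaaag
Their scores ran from 26.2 for Wrb and Nnt to 27.7 for Gm20388, so sites listed at 1 time point held matches of nearly the score of the best shared ones. Over all sites, the median score was 19.2 for shared (18.96 to 19.44) and 18.1 for ZT0-only sites (17.9 to 18.4).

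Some intronic matches recurred letter for letter, although 2337 of 2450 were distinct at ZT0. CCGCCACTAGATGGTGCTA was the match of 5 ZT0 and 5 ZT12 sites in Fabp12, Gm4109, H60b and Mrs2, and all were shared. CAGCCAGCAGGGGGCAGCA was the match of 4 sites in Gm2792, Gm2833 and Sytl3 at both time points, and CGTCCAGCAGAGGGAAGCA of 4 sites in C130026I21Rik, Gm16026 and Sp110, again all shared. CGGCCTGCAGGGGGCGCGC was the match of 4 ZT0 sites in 4930578G10Rik, Gm13299, Gm13307 and Gm3892, of which 2 were shared. Repeats were not analysed here.

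The direction of the motif varied with the position in the gene. Over sites whose host genes lie on a single strand, the match was on the strand of the gene in 46.5% of 2381 ZT0 sites (44.5 to 48.5%) and 47.1% of 1587 ZT12 sites (44.7 to 49.6%). In the 5′ part of the gene body it was 54.8% at ZT0 (50.9 to 58.7%), in the middle 47.8% (44.3 to 51.3%) and in the 3′ part 40.3% (37.3 to 43.4%). The 5′ and 3′ parts differed by 14.5 points at ZT0 (9.46 to 19.4) and 18.2 points at ZT12 (12.0 to 24.1). As most ZT12 sites are ZT0 sites too, the time points are not independent here. Neighbouring intronic sites of a gene lay a median of 18.9 kb apart at ZT0. Of 447 neighbours that both held a match, 222 pointed the same way, 90 towards each other (20.1%, 16.7 to 24.1%) and 135 away from each other (30.2%, 26.1 to 34.6%). At ZT12 the counts were 135, 41 and 67 of 243.

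Among 15 listed genes of the circadian clock, Rora held an intronic site at ZT0, and Rora and Arntl held one at ZT12. The list does not hold every clock gene, and these were not the only clock hosts at either time point. Outside it, Cry1, which the study counts as a core clock gene, held a ZT0-only site. Also outside it, Btrc, which encodes a ubiquitin ligase subunit that acts on period proteins, held a shared site. Arntl2, a paralogue of Arntl, held a ZT12-only site, and hosts outside the list are not all named. Over all protein-coding genes the shares were 10.8% and 7.60%, and with a list this short the counts say little. Arntl, which encodes the clock activator BMAL1, held a ZT12-only site at chr7:120411912-120412151 in intron 2 of 19, 61.1 kb from the gene start. Its best match lay against the direction of the gene and scored 18.6, above the threshold of 15.1. Rora, a nuclear receptor that activates Arntl, held 3 ZT0 sites. The ZT0-only sites were chr9:68537266-68537488 in intron 1 and chr9:69205764-69206001 in intron 3. The shared site was chr9:69215976-69216224 in intron 5, which overlapped chr9:69215927-69216219 at ZT12 with the same match. The best match of the intron 1 site scored 7.77, below the threshold. The sequences of these matches, with 20 bases on each side, show how far each departs from the most frequent bases.
Arntl intron 2: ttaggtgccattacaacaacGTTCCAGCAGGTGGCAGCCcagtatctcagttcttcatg
Rora intron 1: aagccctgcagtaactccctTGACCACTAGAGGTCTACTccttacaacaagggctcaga
Rora intron 3: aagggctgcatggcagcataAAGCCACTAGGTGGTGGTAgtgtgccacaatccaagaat
Rora intron 5: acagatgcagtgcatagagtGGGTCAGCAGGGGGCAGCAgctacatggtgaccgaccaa

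Of 20 hepatic transcription factors, 4 held an intronic site at ZT0 (20%) and 1 at ZT12 (5%), against 10.8% and 7.60% of all protein-coding genes. The listed genes had a median length of 37.2 kb, against 15.5 kb, and these lists too are short. The list does not hold every hepatic factor, and outside it Gata4, for example, held a ZT0-only site. Hnf4a, a nuclear receptor of hepatocyte identity, held a shared site at chr2:163357697-163358039 and a ZT0-only site at chr2:163360588-163361018, both in intron 1. The ZT0-only sites of Nr1h4, the bile acid receptor FXR, Nr5a2, the receptor LRH-1, and Onecut1 were their only intronic sites. Of 19 autosomal genes of glucose metabolism, Gsk3b, a kinase that acts on glycogen synthase, was the single host (5.26% at each time point). This list is not complete either, and outside it Fbp2 held a shared site, Pdk1 a ZT0-only site and Hk2 and Mlxipl a ZT12-only site each. The ZT0-only sites of Gsk3b lay in introns 1 and 7 and its ZT12-only site in intron 10. Of 22 genes of lipid and bile acid metabolism, 2 were hosts at each time point (9.09%, against 10.8% and 7.60%). Acaca, an acetyl-CoA carboxylase, held a ZT0-only and a ZT12-only site in the same intron. Lpin1 held 2 ZT0-only sites and Lpin2 a ZT12-only site, and both encode phosphatidate phosphatases.

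Of 24 genes of plasma proteins, 5 were hosts at ZT0 (20.8%) and 1 at ZT12 (4.17%), against 10.8% and 7.60% of all protein-coding genes, at a median length of 15.6 kb. Trf, which encodes transferrin, held a shared site at chr9:103110164-103110491 in intron 16 of 22. Afp, Itih4 and Plg, which encodes plasminogen, held ZT0-only sites. F12, a coagulation factor, held a shared site of 281 bp over an intron of 85 bp, and no ZT12 site was intronic in F12 by its midpoint. Of 13 autosomal genes of CTCF and cohesin function, Zfp143 alone was a host (7.69% at ZT0), with a ZT0-only site in intron 12.

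Imprinted genes, whose expression depends on the parent of origin, held intronic sites in 7 of 26 at ZT0 and 5 of 26 at ZT12 (26.9% and 19.2%). Of the 23 that are protein-coding, 6 and 4 were hosts (26.1% and 17.4%), against 10.8% and 7.60% of all protein-coding genes. These 23 are long, with a median of 62.4 kb against 15.5 kb, and of all protein-coding genes of 30 to 100 kb 18.3% and 12.5% were hosts. Whether the list differs from genes of like length was not tested. The list does not hold every imprinted gene, and outside it Slc22a18, for example, held a shared site. Grb10 held a shared site at chr11:11873384-11873755, and Kcnk9 one at chr15:72347500-72347726. Airn, a noncoding RNA antisense to Igf2r, held a shared site at chr17:13003358-13003680, while Igf2r itself held a ZT0-only site in intron 42 of 47. Trappc9 held 3 sites at ZT0, 2 of them shared, and Peg3 a ZT0-only site. Kcnq1, a potassium channel, held a shared site at chr7:150324657-150324984 and a ZT0-only site at chr7:150339716-150340023. Its ZT12 partner, chr7:150324579-150324904, ended before the last base of the ZT0 match at 150324907, so a match was counted at ZT0 alone.

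The widest intronic sites were shared. The ZT0 site chr16:11423407-11424416 in intron 4 of Snx29, a sorting nexin, was 1010 bp wide, and its ZT12 partner 917 bp. In Ms4a15 the ZT0 site chr19:11053622-11054550 was 929 bp wide against 201 bp at ZT12, and in Gm14206 the widths were 924 and 810 bp. The widest ZT0-only sites were those of Eif3k (741 bp), a subunit of a translation initiation factor, Gm14164 (705 bp) and Vac14 (684 bp). The widest ZT12-only sites were those of Ccnd2, a D-type cyclin (648 bp, chr6:127092088-127092735), Gnat1, the rod transducin subunit (578 bp), and Rph3al (509 bp).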

How the data were processed

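CTCF ChIP-seq of livers was used, with 2 samples at ZT0 and 2 at ZT12. Per the labels, the authors' processing notes name FastQC, Bowtie2, SAMtools, deepTools and MACS2 and the build NCBIM37 (mm9), and the deposited lists hold peak positions after a motif search. How the replicates were combined is not given in the sources used here. Positions were read as deposited, and no duplicate was found. Genes and sequence came from GENCODE vM1 and the genome of the same build. Each site was classed by its midpoint. The host intron was that of the longest transcript, with protein-coding genes taken first. The motif matrix was started from the 10-letter word most enriched over regions 5 kb away and refined in 3 rounds on sites outside introns, so intronic sites were not used to learn it. Percentages carry Wilson, differences Newcombe and densities exact Poisson intervals at 95%. Sites are not replicates, and no test across animals was possible.

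Genes named are the 10 protein-coding genes with most intronic ZT0 sites, 5 each with most ZT0-only and ZT12-only sites, the hosts among 7 gene lists, the 3 widest sites of each class and the 3 with the highest motif score. Ties were settled by more ZT12 sites, then by name, so 4 of the 8 genes with 5 ZT0 sites and 2 of the 12 with 2 ZT12-only sites were named. Genes with recurring matches, at the edge of the 1 kb rule, overlapping a named gene or outside the gene lists were named after their values were seen. The splits by width, CpG and part of the gene body were not among the planned results. Members and lists were chosen with earlier results of these data known. The steps were tested on simulated data. Scripts ran in Python 3.11.15; pysam 0.24.0 read the genome, pandas 2.3.3 the lists, and statistics came from SciPy 1.17.1 and NumPy 2.4.6.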

Additional observations from a re-analysis of the deposited data

Results flagged for a closer look

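Chromosome X was outside the rule, but its lists held sites that would otherwise count as intronic, 11 at ZT0 and 9 at ZT12, of which 2 at each time point were shared. The density was 0.247 per Mb of intron at ZT0 (exact Poisson interval 0.123 to 0.442) and 0.202 per Mb at ZT12 (0.0925 to 0.384), below the 3.57 and 2.36 per Mb of the autosomes. Whether the lists hold every site called on chromosome X was not tested.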

How the results depend on the processing

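No paired analysis was possible because the livers of the time points came from different mice. Neither list carries a replicate or a score, so leaving out a replicate and a stricter score were not run. With no duplicate the lists as deposited gave the same values. Of 106 values under the other alternatives, 68 stayed within the interval of the main value or within 1.5 times a count, and 38 moved. Values are given for ZT0 and then ZT12. With protein-coding genes alone, the intronic percent was 29.8% and 29.2% and the first-intron percent 21.4% and 21.0%. At over 2.5 kb from transcript starts, the intronic percent was 26.4% and 26.0%, the density 3.32 and 2.19 per Mb, the first-intron percent 20.4% and 21.0%, and the percent within 1 kb of an exon 37.6% and 37.7%. With the whole site in the intron, the intronic percent was 26.6% and 26.3%, the density 3.07 and 2.04 per Mb, the first-intron percent 24.99% and 25.6%, the percent within 1 kb of an exon 30.5% and 31.7%, and at ZT0 the shared percent was 50.4% and the median width 297 bp. Overlap of at least 50% of both sites gave shared percents of 49.9% and 75.2%. Sites wider than the median of their list left 1348 and 906 intronic sites, with an intronic percent of 27.0% and 27.0%, a shared percent of 68.2% and 87.2%, a median width of 368 and 339 bp and a motif percent of 82.7% and 82.7%. The score that 5% of regions 5 kb away pass gave motif percents of 94.6% and 95.3%. Within 2 kb of an exon lay 59.0% and 59.8%. By construction, stricter classes hold fewer sites, a stricter overlap lowers the shared percent, and a looser score or exon distance raises its percent. Sites wider than the median have a larger median width by construction too. The direction of these shifts was fixed in advance, and the cause of the other shifts was not tested. Leaving out gene bodies over 2 Mb, chosen after seeing the data, moved none of 20 values. Depth is unknown, so sites missed at either time point cannot be told from sites not bound.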
